A study of Mus musculus with 6 samples.

Results

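The 10 genes of retinoic acid metabolism and reception were followed across RNA-seq libraries of cultured muscle stem cells (MuSCs). They were taken by symbol from the deposited matrix, and 10 of 10 had a row among its 18943 genes. The genes were Rdh10, Dhrs3, Aldh1a1, Aldh1a2, Aldh1a3, Cyp26b1, Crabp2, Rara, Rarb and Rarg. MuSCs were FACS-purified from wild-type C57BL/6 mice at 8 weeks of age and kept in culture for 5 days in the presence of DMSO, the solvent control, of ET-3 (endothelin-3) or of NT (neurotensin). Both ligands are peptides that act on G protein-coupled receptors, and the question of the study was how their addition changes cultured MuSCs. Each of the 3 groups had 2 libraries, although the series' design text speaks of triplicates. The labels give 100 nM for both ligands, whereas the study's methods give higher concentrations. Nothing in the labels says that the 2 libraries of a group came from separate cultures or animals, so that the p-values below measure the spread between libraries, which may be technical.

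Retinol is oxidized to retinal by the dehydrogenase RDH10 and back to retinol by the reductase DHRS3, and retinal is oxidized irreversibly to retinoic acid by the ALDH1A enzymes. Retinoic acid is carried to its nuclear receptors (RARA, RARB and RARG) by CRABP2 and is cleared by the cytochrome P450 enzymes of the CYP26 family. The receptors bind DNA as heterodimers with RXR proteins, commonly at direct repeats of a hexamer, and retinoic acid is known to affect both the differentiation of myoblasts and the quiescence of MuSCs.

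The deposited numbers are read counts that had been multiplied by 1 factor per library and rounded, and are called values here. They summed to 4214458 to 4600575 per library, which corresponds to 3629306 to 5396581 reads on genes, so that a value of 100 carried a counting error of 8.84% to 10.9%. Genes whose values averaged 5 or more were tested with limma, and a gene was called when its Benjamini-Hochberg adjusted p was at most 0.05 and its change at least 2-fold. All fold changes are of value + 1, which understates the change of low genes. Of the 10 genes, 8 passed the filter, and Aldh1a2 and Aldh1a3 did not. The genes were chosen by symbol, with their measured differences between ligand and DMSO libraries already known, so their differences from DMSO are given as a description, without p-values. That one of them was called, or passed the adjusted p, states its place in the fit over all genes and is no independent test. ET-3 and NT were compared with the same DMSO libraries, and their values stand side by side for that reason. The chi-square of the paired values averaged 0.868 per gene between the ET-3 libraries, 0.953 between the NT libraries and 1.49 between the DMSO libraries. The treated pairs thus differed by no more than the sampling noise, and results are also given with the average of each pair as a single sample where that changed a call.

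The cells carried MuSC and myoblast transcripts in every library, with Pax7 at 857 and 1070 in DMSO and between 1599 and 1754 with a ligand. Calcr and Chodl, markers of quiescent MuSCs, were at most at 3 and 7. The 8 markers of this list summed to 7042 and 7690 in DMSO, 7009 and 6764 under ET-3 and 6218 and 5964 under NT, and did not move one way. Cdh15 was at 1547 and 1746 in DMSO and at 436 to 496 with a ligand. Itga7 was at 2427 and 2651 against 1851 to 2269. Vcam1, like Pax7, was higher with a ligand, at 475 to 573 against 378 and 306. Myf5 and Myod1 lay below both DMSO libraries under NT alone. The summed value of 8 genes of differentiating muscle was 29395 and 32521 in DMSO, 1806 and 2135 under ET-3 and 1895 and 2312 under NT, and 8 of 8 were called lower with either ligand. Fewer cells of a type and less RNA per cell cannot be told apart in such bulk samples. Summed smooth muscle and pericyte markers stood at 3207 and 3650 in DMSO against 752 to 928 with a ligand, with Kcnj8 and Myh11 at most at 4. Notch3 held 1397 and 1773 of the DMSO sums and Abcc9 851 and 835. Of the 5 tested genes of that list, 4 were called lower with either ligand. Cspg4, at 610 and 612 in DMSO and 433 to 509 with a ligand, was not called. Schwann cell markers were at 1623 and 1694 against 144 to 213, of which Erbb3 held 1458 and 1519 in DMSO. Endothelial markers were at 12 and 24 in DMSO and at 85 to 107 with a ligand, with Tek at 42 to 70 and Cdh5 at most at 5. Fibroadipogenic markers summed to 2584 and 2894 in DMSO and to 2256 to 2576 with a ligand, most of it Col3a1 and Fbn1. Within that list Cd34, which quiescent MuSCs and endothelial cells also express, was at 5 and 1 in DMSO and at 264 to 330 with a ligand, called higher with both (log2 fold change 6.42 ± 0.40 and 6.45 ± 0.40) but not with treated pairs averaged (adjusted p = 0.053 and 0.0559 by limma). Dcn and Col3a1 of the same list went the other way, from 9 and 17 to 0 to 2 and from 1420 and 1577 to 922 to 1061. Of its 5 tested genes, 2 were higher and 2 lower past the adjusted p under ET-3, and 3 and 1 under NT. Macrophage markers summed to 39 and 39 in DMSO and to 51 to 77 with a ligand, and did not move one way. Cd14 among them, at 4 and 5 in DMSO and at 24 to 34 with a ligand, was called higher. Cd68, at 15 and 14 in DMSO, was at 16 to 41. Itgam and Csf1r went the other way, from 14 and 7 to 0 in each treated library and from 6 and 13 to 4 to 5. Cdh15, Itga7, Vcam1, Myf5, Myod1, Notch3, Abcc9, Cspg4, Cd34, Dcn, Col3a1, Cd14, Cd68, Itgam and Csf1r are named after their values were seen. The part of these cell states and cell types in the values below was not tested.

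The sequences shown are the promoter windows, 250 bases before to 50 bases after a RefSeq start on GRCm38.p6, of the members with the highest and the lowest fitted log2 fold change, Cyp26b1 and Dhrs3, and of the 2 genes of the pathway whose window matched the DR5 arrangement described for retinoic acid response elements. Windows were found for 7 of the 10 genes, in 14 entries. A direct repeat was searched on both strands as a pair of hexamers, each reading A or G, then G, then G or T, then TCA, with 1 (DR1), 2 (DR2) or 5 (DR5) bases between them, and capitals mark the hexamers of a match. The lines give, in turn, Rarb at chr14:16575427-16575726 on the minus strand, Cyp26a1 (a further retinoic acid hydroxylase) at chr19:37697558-37697857 on the plus strand, Cyp26b1 at chr6:84593761-84594060 on the minus strand and Dhrs3 at chr4:144892577-144892876 on the plus strand.
Rarb: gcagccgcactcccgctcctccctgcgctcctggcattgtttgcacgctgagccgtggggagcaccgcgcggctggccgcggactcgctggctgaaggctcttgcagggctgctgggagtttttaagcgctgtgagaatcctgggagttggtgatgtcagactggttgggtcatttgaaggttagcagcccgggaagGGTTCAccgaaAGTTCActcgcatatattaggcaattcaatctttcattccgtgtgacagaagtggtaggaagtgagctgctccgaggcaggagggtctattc
Cyp26a1: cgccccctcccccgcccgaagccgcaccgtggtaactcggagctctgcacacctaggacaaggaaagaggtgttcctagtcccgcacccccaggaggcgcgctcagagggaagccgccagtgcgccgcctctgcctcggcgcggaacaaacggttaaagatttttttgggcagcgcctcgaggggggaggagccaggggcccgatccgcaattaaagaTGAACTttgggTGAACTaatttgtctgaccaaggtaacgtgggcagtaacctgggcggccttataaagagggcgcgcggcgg
Cyp26b1: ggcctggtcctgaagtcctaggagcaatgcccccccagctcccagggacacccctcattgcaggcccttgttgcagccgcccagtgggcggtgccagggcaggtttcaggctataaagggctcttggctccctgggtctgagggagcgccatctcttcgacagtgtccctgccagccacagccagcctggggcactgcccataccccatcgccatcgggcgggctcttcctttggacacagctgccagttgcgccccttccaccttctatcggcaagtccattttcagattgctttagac
Dhrs3: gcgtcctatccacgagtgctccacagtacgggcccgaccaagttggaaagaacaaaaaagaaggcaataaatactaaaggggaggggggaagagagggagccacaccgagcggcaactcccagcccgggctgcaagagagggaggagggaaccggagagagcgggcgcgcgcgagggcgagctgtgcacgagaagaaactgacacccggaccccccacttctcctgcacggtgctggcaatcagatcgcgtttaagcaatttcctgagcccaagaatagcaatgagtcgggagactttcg

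The Rarb window held a DR5 on the strand of the gene, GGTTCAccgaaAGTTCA at chr14:16575513-16575529, from 53 to 37 bases before the start. The start lies inside the span the matrix gives for the gene (chr14:16430839-16819156), that is, it is an internal start. The Cyp26a1 window held a DR5 on the opposite strand, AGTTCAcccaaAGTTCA at chr19:37697776-37697792 (reverse-complemented in the line above), from 32 to 16 bases before the start. DR5 was present in 32 of 32851 RefSeq promoter windows of this length (0.0974%), DR1 in 73 (0.222%) and DR2 in 88 (0.268%). The entries of the 10 genes held 1 DR5, that of Rarb, and 0 DR1 or DR2. The hexamer AGGTCA, searched alone on both strands and not counted as a repeat, was in 2 of the 14 entries (14.3%), 1 of Rara and 1 of Rarg, and in 16.3% of all windows. The windows of Cyp26b1 and Dhrs3 held no repeat of these letters within 300 bases, and Crabp2 has no entry in the table used, while both genes whose window held a DR5 were low in every library, as given with their values.

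Dhrs3, the retinal reductase that returns retinal to retinol and is itself a known retinoic acid target, had the lowest fitted log2 fold change of the 8 tested genes, under NT by a margin over Crabp2 within their errors. Its value was 64 and 61 in the DMSO libraries, 1 and 4 under ET-3 and 3 and 2 under NT. All 4 treated libraries lay far below both DMSO libraries, near the value of a few reads. On the log2 scale the fold change came to -4.33 ± 0.47 (SE) under ET-3 and -4.20 ± 0.47 under NT. In reads, 118 in DMSO stood against 5 under ET-3 and 7 under NT, a ratio of DMSO over ligand of 21.9 (95% exact counting interval, 9.13 to 68.7) and 21.9 (10.3 to 55.5), respectively. These intervals cover counting error alone.

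Crabp2, which delivers retinoic acid to the nuclear receptors, was at 44 and 42 in DMSO, at 2 and 7 under ET-3 and at 2 and 1 under NT. All 4 treated libraries lay below both DMSO libraries, and the ET-3 and NT libraries overlapped. Under ET-3 the log2 fold change was -3.17 ± 0.50. With NT, 3 reads remained against 82 in DMSO, a ratio of 35.4 with a 95% counting interval of 11.7 to 175, and the fitted log2 fold change of -4.17 ± 0.50 depends on the value added before the logarithm.

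Cyp26b1, the hydroxylase that inactivates retinoic acid, changed in the opposite direction. Its value was 31 and 46 in the DMSO libraries, 241 and 229 under ET-3 and 245 and 254 under NT. The 4 treated libraries lay within 229 to 254, far above both DMSO libraries. Relative to DMSO, the log2 fold change came to 2.60 ± 0.16 under ET-3 and 2.69 ± 0.16 under NT, or 6.08-fold and 6.46-fold. The other CYP26 genes stayed near the floor, with Cyp26a1 at 3 and 2 in DMSO, 1 and 1 under ET-3, and 0 and 2 under NT. Cyp26c1 (named after its values were seen) was at most at 5.

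**Figure D1:**
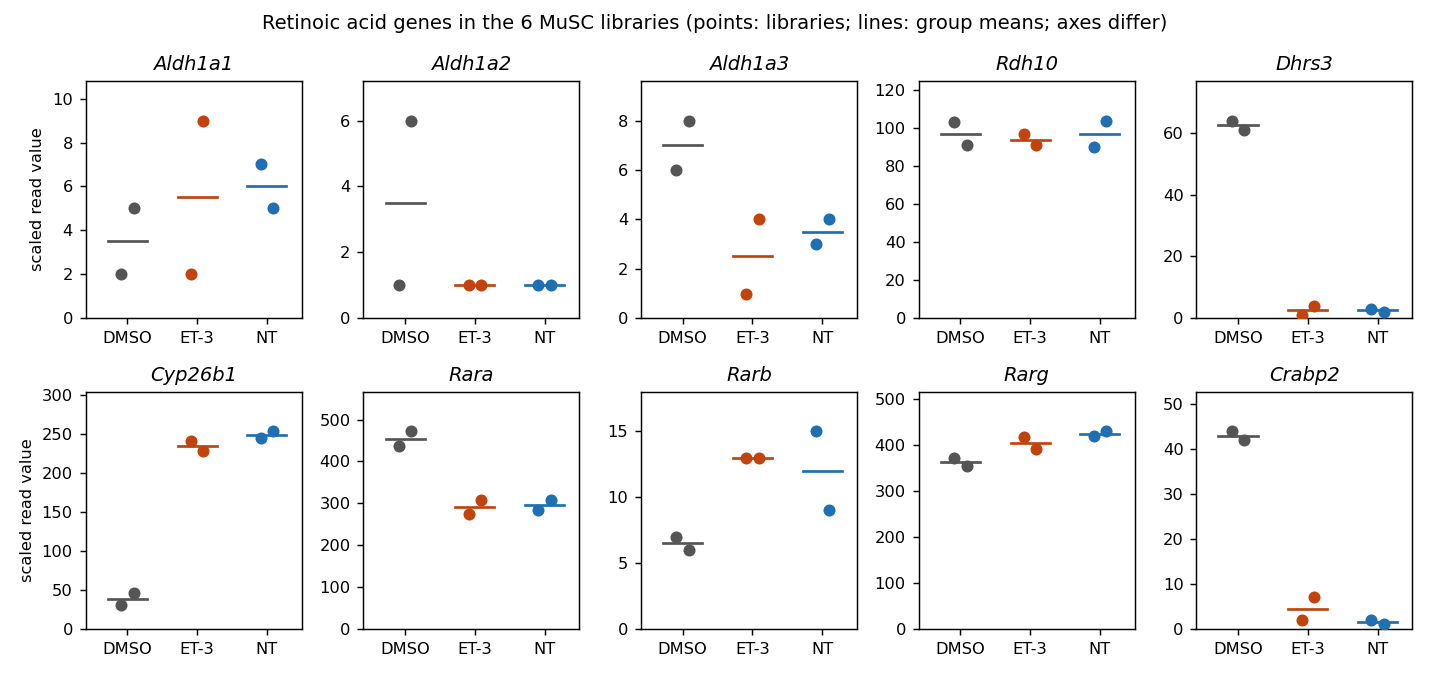
Deposited values of the 10 retinoic acid genes in the 6 libraries, 1 panel per gene with its own linear axis from 0. Points are libraries and horizontal lines are the means of the 2 libraries of a group. Cyp26b1 stands at 31 and 46 in DMSO and at 229 to 254 with a ligand, and Dhrs3 and Crabp2 drop to at most 4 and 7.

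Of the 8 tested genes, 3 were called under ET-3 and 3 under NT, the same genes in both cases: Cyp26b1 was higher, and Dhrs3 and Crabp2 were lower. Of all 13921 tested genes, 21.5% were called under ET-3 (6.62% higher, 14.9% lower) and 20.5% under NT (7.3% higher, 13.2% lower). The members were chosen with these contrasts known, and nothing is read from the difference between the shares. By the adjusted p alone, without a fold threshold, 6 of 8 passed under ET-3 and 5 of 8 under NT, beside 63.7% and 62.2% of all tested genes. The median log2 fold change of the 8 genes was 0.06 under ET-3 and 0.11 under NT, and that of all tested genes -0.01 with either ligand. The genes therefore did not move one way: enzymes and receptors were found on both sides of 0. The 3 calls held with treated pairs averaged.

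**Figure D2:**
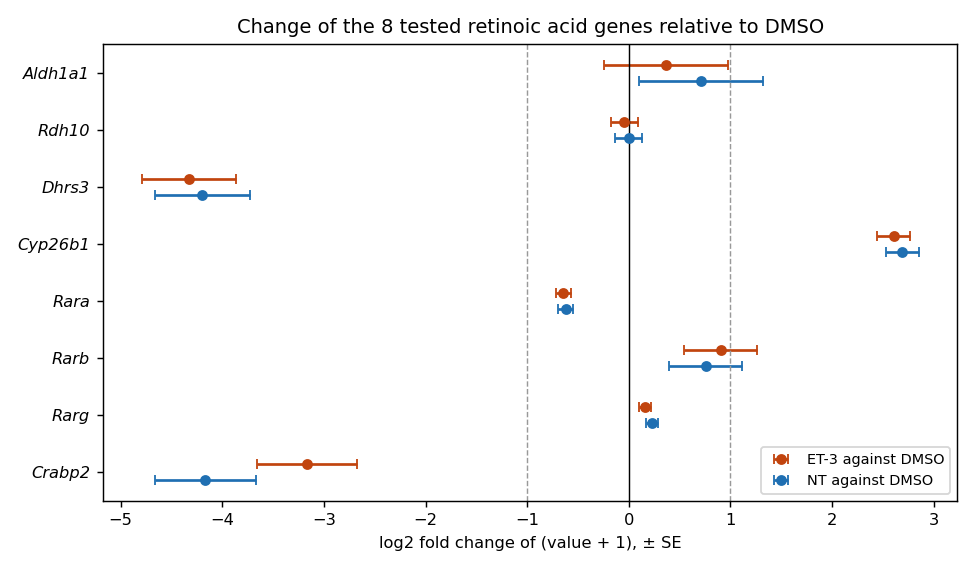
Log2 fold change of value + 1 against DMSO of the 8 tested retinoic acid genes, under ET-3 in orange and NT in blue. Bars are standard errors of the limma fit over 6 libraries and dashed lines mark 2-fold changes. Dhrs3, Crabp2 and Cyp26b1 lie beyond the dashed lines with both ligands and the other 5 genes between them.

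**Figure D3:**
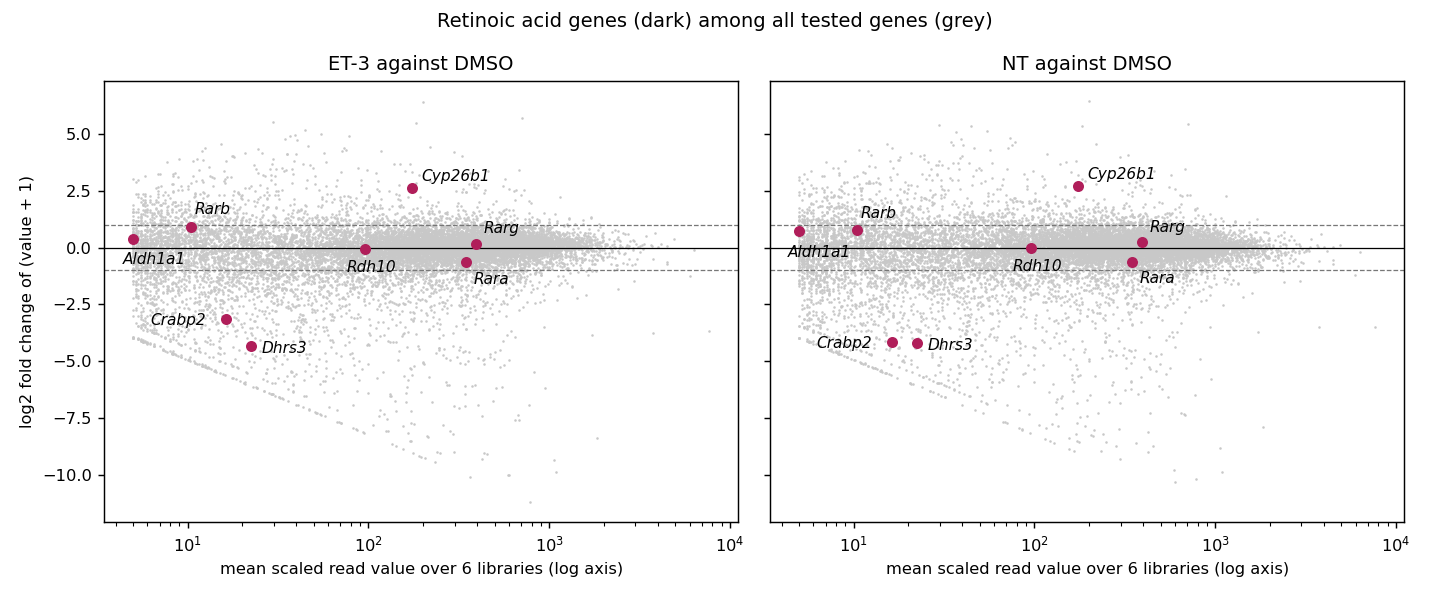
Log2 fold change of value + 1 against the mean value over the 6 libraries (logarithmic axis) of the 13921 tested genes in grey and the 8 tested retinoic acid genes in red, under ET-3 on the left and NT on the right. Dashed lines mark 2-fold changes. Rara, Rarg and Cyp26b1 lie at mean values above 100, whereas Aldh1a1 and Rarb sit at the low end near the filter.

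The retinol dehydrogenase Rdh10, which carries out the first step of synthesis, did not change detectably. It was at 103 and 91 in DMSO, 97 and 91 under ET-3, and 90 and 104 under NT. The 3 groups overlapped. On the log2 scale the fold change came to -0.04 ± 0.13 under ET-3 and -0.00 ± 0.13 under NT. The 95% intervals, -0.34 to 0.26 and -0.30 to 0.30, leave out a 2-fold change. Within a library, the value per exonic kilobase of Rdh10 was 1.05 and 1.13 times that of the opposing reductase Dhrs3 in DMSO, and 16 to 68.2 times under ET-3 and 21.1 to 36.6 times under NT. The ratio of Cyp26b1 to Rdh10 per kilobase, 0.234 and 0.393 in DMSO, was 1.93 to 1.96 under ET-3 and 1.90 to 2.12 under NT. Both ratios separated the treated from the DMSO libraries without any scaling between libraries.

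The retinal dehydrogenases that make retinoic acid were close to the detection limit in every group. Aldh1a1 was at 2 and 5 in DMSO, 2 and 9 under ET-3, and 7 and 5 under NT. These groups overlapped, at log2 fold changes of 0.37 ± 0.61 and 0.71 ± 0.61. Aldh1a2 was at 1 and 6 in DMSO and at 1 in each treated library. Aldh1a3 was at 6 and 8 in DMSO, 1 and 4 under ET-3, and 3 and 4 under NT, so that its treated libraries lay below both DMSO libraries. In these libraries 3 reads amount to a value of 2.34 to 3.57, and differences of these enzymes were not detectable at this depth. Reads that fit both Aldh1a1 and its close paralog Aldh1a7 may be missing from the value of Aldh1a1, since reads that aligned to several regions were left out by the authors.

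Rara and Rarg were the receptors with the most reads. Rara was at 437 and 472 in DMSO, 274 and 308 under ET-3, and 283 and 307 under NT. The treated libraries lay below both DMSO libraries. Relative to DMSO, the log2 fold change came to -0.64 ± 0.08 under ET-3 and -0.62 ± 0.08 under NT, past the adjusted p threshold but 1.56-fold and 1.54-fold in size, under the 2-fold limit. Rarg was at 370 and 353 in DMSO, 416 and 390 under ET-3, and 419 and 429 under NT, a log2 fold change of 0.16 ± 0.06 and 0.23 ± 0.06, also past the adjusted p alone. Its treated libraries lay above both DMSO libraries by a small margin, and with treated pairs averaged Rarg no longer passed the adjusted p with either ligand.

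Rarb, whose promoter DR5 is shown above and which is among the best known retinoic acid targets, was low. It was at 7 and 6 in DMSO, 13 and 13 under ET-3, and 15 and 9 under NT. The treated libraries lay above both DMSO libraries, by log2 fold changes of 0.90 ± 0.36 and 0.76 ± 0.36. The difference passed the adjusted p under ET-3 and not under NT, and with neither once treated pairs were averaged. Of the exonic bases of Rarb, 34.1% are shared with Top2b, a gene on the opposite strand with values of 1068 to 1262, and 4.31% with Gm48162. The labels name a library kit other than the stranded kit of the study's methods, so reads of Rarb and Top2b may not have been told apart by strand. The study's methods leave out reads that overlap several genes, so reads in the shared bases may be missing from Rarb. The level of Rarb is uncertain.

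Per exonic kilobase, the DMSO libraries ranked Rara first (100 to 108), then Rarg (82.8 to 86.8), Crabp2 (31.8 to 33.3), Rdh10 (21.9 to 24.8), Dhrs3 (20.8 to 21.9) and Cyp26b1 (5.79 to 8.59). The other 4 genes lay between 0.405 and 2.65. The ranges of Rdh10 and Dhrs3 adjoined, and those of the lowest 4 overlapped. With a ligand the order changed to Rarg (91.5 to 97.6 under ET-3, 98.3 to 101 under NT), Rara (62.8 to 70.6 and 64.8 to 70.3), Cyp26b1 (42.8 to 45.0 and 45.8 to 47.5) and Rdh10 (21.9 to 23.3 and 21.6 to 25.0), with the other 6 genes at most at 5.30. Neighbours among the first 4 did not overlap in either treated group. The ratio of Rara to Rarg per kilobase was 1.15 and 1.31 in DMSO, 0.643 and 0.771 under ET-3, and 0.659 and 0.699 under NT. The 3 RAR genes summed to 188 and 192 per kilobase in DMSO, 163 and 165 under ET-3, and 166 and 173 under NT.

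Of the 10 genes, 3 (Cyp26b1, Rarb and Rarg) lay above both DMSO libraries in all 4 treated libraries and 4 (Dhrs3, Crabp2, Rara and the untested Aldh1a3) below both. Among all tested genes the same held for 33.2% and 36.4%, respectively. The remaining 3, Rdh10, Aldh1a1 and Aldh1a2, overlapped with DMSO.

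The ligands themselves were then compared over the members. In the comparison of NT with ET-3, 0 of the 8 genes were called, beside 0.079% of all tested genes (2.69% by the adjusted p alone). By limma, 0 of the 8 had an unadjusted p under 0.05, and the smallest adjusted p was 0.298 for Crabp2, with a 95% interval of the log2 difference of -2.11 to 0.11. The intervals were narrow for the genes with many reads, -0.06 to 0.21 for Rarg, -0.15 to 0.19 for Rara, -0.26 to 0.34 for Rdh10 and -0.27 to 0.44 for Cyp26b1. They leave out a 2-fold difference for these genes. For Dhrs3 (-0.91 to 1.17), Rarb (-0.95 to 0.66) and Aldh1a1 (-1.02 to 1.70), as for Crabp2, the intervals were wider and reached to or near a 2-fold difference.

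The RXR genes encode the obligate partners of the RARs, and Rxrg showed the largest change among the 3 RAR and 3 RXR genes. Rxrg was at 195 and 199 in DMSO, 0 and 1 under ET-3, and 3 and 4 under NT. Its treated libraries held 1 read under ET-3, a ratio of DMSO over ET-3 of 345 (95% counting interval, 61.6 to 13679), and 9 reads under NT, a ratio of 53.6 (27.9 to 118). It was called lower by limma under ET-3 (adjusted p = 2.17e-07) and under NT (log2 fold change -5.47 ± 0.40, adjusted p = 1.51e-06). These and all adjusted p-values below are from limma with Benjamini-Hochberg adjustment over all tested genes. The pathway lists were also chosen with earlier results of these data known, and several genes are named because they were called with both ligands. Their adjusted p-values state a place in the fit over all genes and are no independent test. Rxra was at 560 and 583 in DMSO and at 590 to 640 with a ligand, with log2 fold changes of 0.09 ± 0.05 under ET-3 (adjusted p = 0.177) and 0.13 ± 0.05 under NT (adjusted p = 0.0451). Rxrb was at 297 and 321 in DMSO, 399 and 370 under ET-3, and 434 and 403 under NT, log2 fold changes of 0.31 ± 0.07 and 0.44 ± 0.07 (adjusted p = 0.0025 and 0.000323). Both were under 2-fold, and with treated pairs averaged neither Rxra (adjusted p = 0.301 and 0.175) nor Rxrb (adjusted p = 0.0986 and 0.0699) passed the adjusted p. Rxrg made up 31.6% and 32.4% of the summed RXR values per kilobase in DMSO, 0% and 0.216% under ET-3, and 0.585% and 0.79% under NT.

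**Figure D4:**
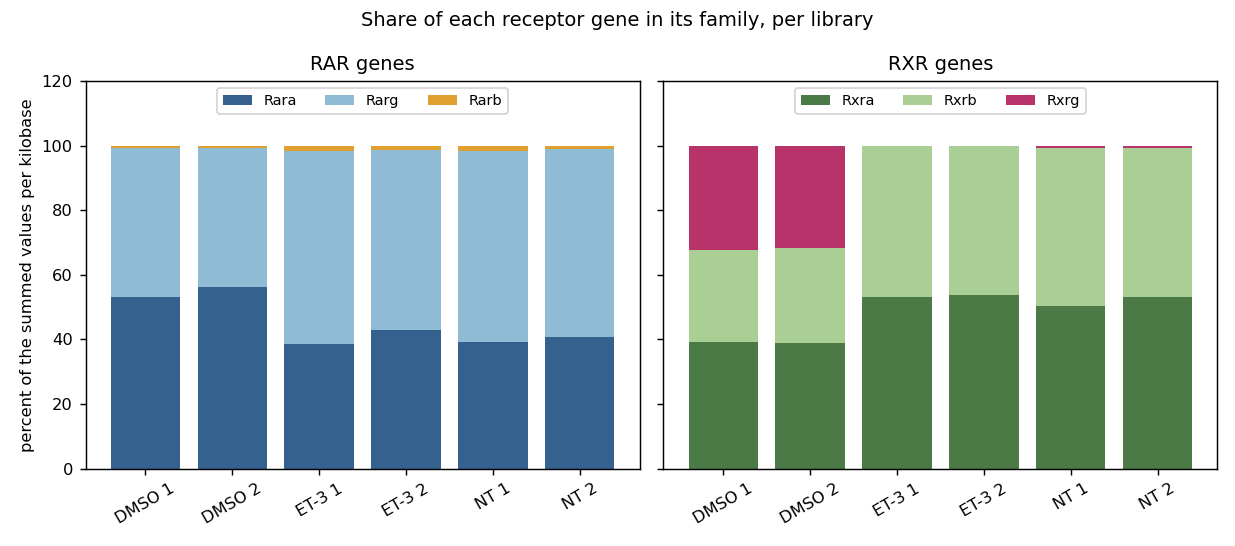
Stacked bars of the share of each gene in the summed values per exonic kilobase of the 3 RAR genes (left) and the 3 RXR genes (right) in each library, in percent. The Rara share is 53.2% and 56.3% in DMSO and 38.5% to 42.9% with a ligand, and Rxrg, at 31.6% and 32.4% in DMSO, is at most 0.79% with a ligand.

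Proteins that bind retinoids were unequally affected. Crabp1, a close relative of Crabp2, was at 0 and 1 in DMSO, 8 and 8 under ET-3, and 15 and 9 under NT, against the single read of DMSO a ratio of 15.1 (95% counting interval, 2.29 to 638) and 23.1 (3.85 to 944). It was called higher with both ligands (adjusted p = 0.000748 and 0.000256), but not with treated pairs averaged (adjusted p = 0.0884 and 0.0746). Fabp5, which can carry retinoic acid to the receptor PPARD, was at 200 and 184 in DMSO and at 185 to 200 with a ligand, log2 fold changes of 0.04 ± 0.08 and -0.05 ± 0.08 (adjusted p = 0.675 and 0.626). Ppard itself, named after its values were seen, was at 260 and 257 in DMSO, 509 and 464 under ET-3, and 444 and 483 under NT. In reads the ratio of ligand over DMSO was 1.88 (95% counting interval, 1.68 to 2.11) and 1.80 (1.61 to 2.00). Ppard was not called. Per kilobase the value of Fabp5 was 1.62 and 1.68 times that of Crabp2 in DMSO, 10.6 and 36.1 times under ET-3 and 34.3 and 68.9 times under NT.

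Stra6, the cell surface receptor that takes up retinol, was at 13 and 25 in DMSO, 0 and 0 under ET-3, and 0 and 1 under NT. Both ET-3 libraries were without a read, which with a floor of 3 reads per library makes Stra6 at least 5.55-fold lower. It was called lower under ET-3 (adjusted p = 8.27e-05) and under NT (adjusted p = 0.000208), where 1 read gave a ratio of 45.4 (95% counting interval, 7.63 to 1843), and the call under NT was lost with treated pairs averaged (adjusted p = 0.0577). Dhrs9, a short-chain dehydrogenase able to oxidize retinol, was at 3 and 6 in DMSO, 57 and 52 under ET-3, and 35 and 52 under NT. It was called higher (log2 fold change 3.39 ± 0.33 and 3.05 ± 0.33, adjusted p = 1.07e-05 and 2.45e-05), but not with treated pairs averaged (adjusted p = 0.053 and 0.0618).

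Among cofactors, the coactivator gene Ncoa1 was at 1692 and 1747 in DMSO, 559 and 566 under ET-3, and 660 and 682 under NT, a log2 fold change of -1.61 ± 0.04 and -1.36 ± 0.04 (adjusted p = 2.75e-09 and 7.11e-09). Its treated libraries were clearly apart from DMSO and, by less, from each other. The zinc finger gene Zfp423, whose product interacts with RARs, was at 73 and 77 in DMSO, 23 and 25 under ET-3, and 28 and 38 under NT, and was called lower with both ligands (log2 fold change -1.60 ± 0.22 and -1.18 ± 0.22, adjusted p = 0.000111 and 0.000947). Without the first NT library the change under NT was -0.96, under 2-fold.

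Among known retinoic acid targets, Tgm2 (tissue transglutaminase) was at 40 and 56 in DMSO, 6 and 1 under ET-3, and 2 and 5 under NT. It was called lower with log2 fold changes of -3.69 ± 0.59 and -3.51 ± 0.59 (adjusted p = 0.000335 and 0.000494), and without the second DMSO library the call under NT was lost (adjusted p = 0.0513). Bhlhe40, a basic helix-loop-helix repressor also known as Stra13, was at 530 and 448 in DMSO, 156 and 150 under ET-3, and 166 and 167 under NT, log2 fold changes of -1.67 ± 0.09 and -1.54 ± 0.09 (adjusted p = 1.43e-07 and 2.62e-07). In Tgm2 and Bhlhe40 the treated libraries lay below both DMSO libraries. Other targets, named after their values were seen, did not share this direction. Meis1, a homeobox gene, was at 66 and 81 in DMSO, 124 and 111 under ET-3, and 133 and 141 under NT. Its log2 fold changes of 0.67 ± 0.13 and 0.90 ± 0.13 passed the adjusted p (0.00146 and 0.000239) at less than 2-fold, but not with treated pairs averaged (adjusted p = 0.114 and 0.0832). Meis2, at 102 and 73 in DMSO, 88 and 71 under ET-3, and 105 and 102 under NT, overlapped with DMSO (adjusted p = 0.562 and 0.23).

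Over the whole list of other retinoid pathway genes, 44 of 56 had a row and 36 were tested. Under ET-3, 10 of 36 were called (27.8%), 2 higher and 8 lower, and under NT 9 (25.0%), 2 higher and 7 lower, beside the 21.5% and 20.5% of all tested genes given above. The median log2 fold change of the list was -0.01 under ET-3 and 0.02 under NT, and was -0.01 under ET-3 also with Stra6 at its bound. Called with both ligands were the 8 genes Stra6, Rxrg, Ncoa1, Zfp423, Tgm2, Bhlhe40, Dhrs9 and Crabp1. Akr1b10 and Nrip1, named after their values were seen, were also called under ET-3, and between NT and ET-3 their adjusted p was 0.544 and 0.214. By class, 1 of 3 RXR genes, 3 of 12 corepressors and coactivators and 2 of 11 other dehydrogenases and reductases were called under ET-3, and 1, 2 and 1 under NT. After averaging the treated pairs, 5 genes of the list were called under NT, and 0 were called higher with either ligand. Among all genes called in that setting, 21.9% were higher under ET-3 and 24.6% under NT. Nothing is read from these counts.

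**Figure D5:**
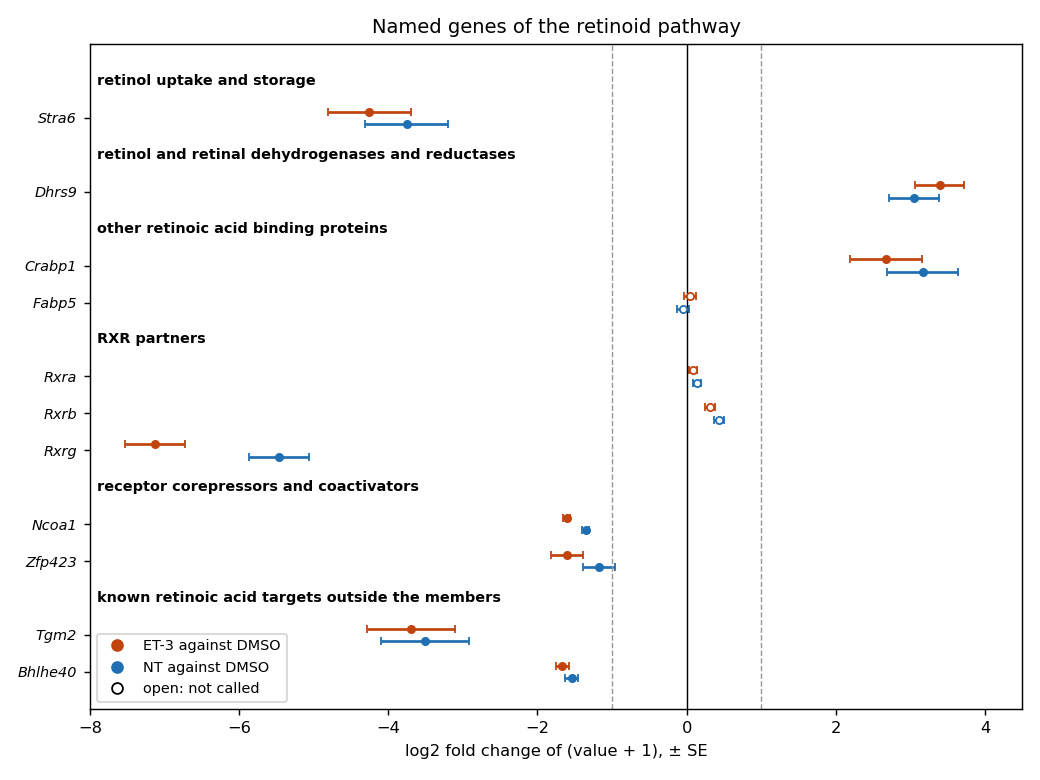
Log2 fold change of value + 1 against DMSO of 11 tested genes of the retinoid pathway outside the 10 genes, ordered by class (those called with both ligands, and Rxra, Rxrb and Fabp5), under ET-3 in orange and NT in blue. Bars are standard errors of the limma fit, filled points are called genes and dashed lines mark 2-fold changes. Rxra, Rxrb and Fabp5 lie between the dashed lines, with Rxrg, Stra6 and Tgm2 far to the left and Dhrs9 and Crabp1 to the right.

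The genes whose pattern over the 6 libraries was most like that of the highest and the lowest member were then listed, by the smallest Euclidean distance of centred log2(value + 1). For Cyp26b1 these were Ngfr (distance 0.227), Psg17 (0.251) and Adcyap1r1 (0.293). Ngfr, the neurotrophin receptor p75, was at 93 and 115 in DMSO, 609 and 600 under ET-3, and 591 and 644 under NT. For Dhrs3 they were Slc13a5 (0.387), a citrate transporter, Dner (0.436) and Gm3830 (0.458). Slc13a5 was at 222 and 176 in DMSO, 5 and 16 under ET-3, and 13 and 11 under NT, and shared with Dhrs3 the lower value in the first ET-3 library.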

How the data were processed

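The 6 RNA-seq libraries of cultured MuSCs were assigned to the DMSO, ET-3 and NT groups by their labels. In the deposited matrix the authors give 1 whole number per gene and library, a scaled read signal and not raw counts. The submitters' processing notes name Trimmomatic 0.38, STAR 2.7.7a, featureCounts 1.6.5, DESeq2 1.30.0 and the build mm10. The paper's methods name Reaper as the trimmer and other versions of STAR, featureCounts and DESeq2, on the same build. Of the whole numbers up to 150, 19 cannot arise from a count in DMSO library 2, 24 in ET-3 library 1 and 13 in ET-3 library 2, and 0 genes lay at them. The factor of each library was fitted to these gaps and to how often each number occurs, and gave the reads used in counting intervals.

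Because the values proved to be scaled, count models were not run. Genes with a mean of at least 5 (13921 of 18943) were tested on log2(value + 1) with limma 3.58.1 in R 4.3.3 (lmFit, contrasts, eBayes with trend), with all 6 libraries in 1 fit and Benjamini-Hochberg adjustment over all tested genes. Exonic lengths came from GENCODE M21 on GRCm38 and promoters from RefSeq. Genes named are the members, pathway genes called with both ligands, fixed pathway genes (Rxra, Rxrb, Rxrg, Cyp26a1, Crabp1 and Fabp5, with 1 more not reported here) and the 3 nearest profiles of the highest and lowest member. The members and lists were chosen with earlier results of these data known. The scripts were tested on simulated data. Alternatives covered the filter, scaling, pseudocount, voom weights, a replicate block, the groups in the fit, pairs counted as 1 sample, the fold threshold and each library left out. Python 3.11.15 with numpy 2.4.6, pandas 2.3.3, scipy 1.17.1 and matplotlib 3.10.9 prepared tables and plots.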

Additional observations from a re-analysis of the deposited data

Results flagged for a closer look

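Ncoa1 differed between the ligands. Against the same DMSO libraries its decrease was smaller with NT than with ET-3, and NT less ET-3 gave a log2 difference of 0.25 ± 0.04 (adjusted p = 0.0379 by limma over all tested genes). Both NT libraries (660 and 682) lay above both ET-3 libraries (559 and 566). The difference is under 2-fold, 2.69% of all tested genes passed the adjusted p in this comparison, and over the alternatives the adjusted p ranged from 0.00675 to 0.712, the highest with treated pairs averaged.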

How the results depend on the processing

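The calls of Cyp26b1, Dhrs3 and Crabp2 with ET-3 and with NT held under all 16 alternatives tried for each, with log2 fold changes of 2.33 to 2.88 and 2.41 to 2.97 for Cyp26b1, -4.99 to -3.20 and -4.41 to -3.17 for Dhrs3, and -3.87 to -2.39 and -4.81 to -2.89 for Crabp2. Without a fold threshold, 6 of the 8 tested genes passed with ET-3 (3 higher) and 5 with NT (2 higher). So did 26 (13 higher, 13 lower) other pathway genes with ET-3 and 24 (12 higher, 12 lower) with NT. Over all genes, 8873 passed with ET-3 (4257 higher, 4616 lower) and 8659 with NT (4131 higher, 4528 lower). For NT against ET-3, 375 passed (90 higher, 285 lower). With each treated pair counted as 1 sample, 5 other pathway genes were called with NT and 0 were higher with either ligand. Of all genes, 464 and 473 were called higher with ET-3 and NT, which was 21.9% and 24.6% of all calls in that setting. Of all genes, 11 were called between NT and ET-3 (7 higher, 4 lower), 7 with pseudocount 5, and 0 without the filter, with only the 2 groups compared, with each pair counted once, or with any library left out (0 to 0). The cause was not tested.

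Scaling each library to its total moved the median of all tested genes with NT by 0.11 on the log2 scale. It turned Rdh10 to 0.045 with ET-3 and 0.11 with NT, and Fabp5 to 0.064 with NT. Rdh10 with NT was 0.042 with upper-quartile scaling and 0.0027 with pairs counted once. With single libraries left out, direction changed for genes near 0 or with few reads. The ranges with ET-3 were -0.50 to 1.24 for Aldh1a1, -0.13 to 0.046 for Rdh10 and -0.018 to 0.10 for Fabp5. With NT they were -0.10 to 0.10 for Rdh10 and -0.11 to 0.012 for Fabp5. Between NT and ET-3 they were -0.53 to 1.21 for Aldh1a1, -0.061 to 0.15 for Rdh10, -0.53 to 0.79 for Dhrs3, -0.063 to 0.10 for Rara and -0.49 to 0.19 for Rarb.

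The labels number the libraries of each group, but nothing says that a number marks a shared animal, culture or day, and the deviations of same-numbered libraries from their group means correlated at -0.06 to 0.00. With the replicate number as a block, 0 of all genes were called between NT and ET-3, and no other call given here for the 10 genes changed. What limits these data is 2 libraries per group, treated pairs that differ by no more than sampling noise, and few reads for the ALDH1A genes, Rarb, and Dhrs3 and Crabp2 with a ligand.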
